A study of Homo sapiens with 12 samples.

Results

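The extracellular matrix genes described here are the collagens, laminin chains, integrin subunits, matrix metalloproteases, ADAM and ADAMTS proteases and TIMP inhibitors on the array, together with fibronectin (FN1) and vimentin (VIM). They were chosen by name: symbols that start with COL and a digit, LAMA, LAMB, LAMC, ITGA, ITGB, MMP and a digit, ADAM, or TIMP and a digit, or that equal FN1, VIM, SPARC or THBS1. The rule found 71 of the 5499 genes named on the array, read by 78 probes. They comprise 22 collagen chains, 12 integrin alpha and 6 integrin beta subunits, 2 laminin chains (LAMA2 and LAMC1), 12 matrix metalloproteases, 7 ADAM and 4 ADAMTS genes, TIMP3, FN1 and VIM. Another 3 genes match by name and are not subunits: ITGB1BP1 and ITGB3BP, whose proteins bind integrin tails, and ITGB2-AS1, an antisense RNA. No probe was named SPARC or THBS1, and 1 probe that names both PELO and ITGA1 was not used.

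H460, a human lung cancer cell line that carries wild-type p53, was treated for 24 h with 1 of 5 drugs, and RNA of treated and untreated cells was hybridised to 12 arrays with 2 channels each. The drugs were 5-fluorouracil (5-FU, an inhibitor of thymidylate synthesis) at 1 µM, cytarabine (a nucleoside analogue) at 0.2 µM, cisplatin (which crosslinks DNA) at 5 µM, paclitaxel (which stabilises microtubules) at 5 nM and cytochalasin D (which caps actin filaments) at 0.2 µM. 5-FU has 4 arrays: 2 forward arrays with treated RNA in channel 2 and 2 reversed arrays with treated RNA in channel 1. Each other drug has 2 arrays, both with treated RNA in channel 1. Untreated H460 RNA filled the other channel every time. The labels name no separate cultures and do not say whether drugs shared untreated RNA, so p-values measure only the spread between these arrays, which may be technical. Each drug was given at 1 dose, and the doses differ between drugs.

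Values below are ratios of treated over untreated RNA on a log scale that is taken as log2, after centring each array on its median. Neither the log base nor the numerator of the ratio is stated in the sources used here. One sign was applied to all arrays so that the p53 targets MDM2 (mean 1.48 over the 5-FU arrays) and CDKN1A (mean 2.49), and the median of a p53 target list (0.40), were positive with 5-FU. The directions are therefore likely rather than stated, and turning the sign would turn all of them together. A ratio shows how a gene moved against the rest of its array, not how abundant it is, so the levels of genes cannot be ranked and the cell line cannot be checked by marker level. Among the epithelial markers KRT8 ranged from -0.29 to 0.10 over the arrays, KRT18 from -0.51 to 0.07, EPCAM from -0.19 to 0.35 and CDH1 from -0.57 to 0.52. The fibroblast markers PDGFRB and THY1 ranged from -0.17 to 0.11 and from -0.05 to 0.16, LUM from -0.20 to 0.58 and PDGFRA, read on 4 arrays, from -0.60 to 0.23. Of the endothelial markers CDH5 was below 0 on all 8 arrays that read it (-1.63 to -0.28), while PECAM1, KDR and VWF lay between -0.51 and 0.37. The leukocyte marker CD14 ranged from -0.19 to 0.84 and was called with 2 drugs. The epithelial marker KRT19 and the fibroblast marker DCN had no named probe.

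Cells hold on to the matrix through integrins, heterodimers of an alpha and a beta chain that bind fibronectin, collagens and laminins outside the cell and connect to actin inside it. Fibrillar collagens and fibronectin form the interstitial matrix, while type IV collagens and laminins build basement membranes. Matrix metalloproteases and ADAMTS enzymes cut matrix proteins, ADAM proteases shed proteins from the cell surface, and TIMPs inhibit these enzymes. Vimentin is no matrix protein but an intermediate filament of mesenchymal cells, which many carcinoma lines also make.

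The sequences before the starts of 4 genes are shown because FN1, VIM and ITGB1 fell together with 5-FU, whereas ADAM12 fell with each of the other 4 drugs. The falls of FN1 and ITGB1 were not confined to 5-FU. FN1 was also called with cisplatin and cytarabine, and ITGB1 was called with these drugs in a fit without a channel term, described below. Each run is the 250 bases before the gene's start in RefSeq (GRCh38.p14), written 5′ to 3′ on the gene's strand, with capitals marking matches to the GC box (GGGCGG or its complement CCGCCC), the cAMP response element (TGACGTCA), the AP-1 site (TGANTCA) or the TATA box (TATAAA or TTTATA).
FN1 (fibronectin; chr2:215436069-215436318, minus strand): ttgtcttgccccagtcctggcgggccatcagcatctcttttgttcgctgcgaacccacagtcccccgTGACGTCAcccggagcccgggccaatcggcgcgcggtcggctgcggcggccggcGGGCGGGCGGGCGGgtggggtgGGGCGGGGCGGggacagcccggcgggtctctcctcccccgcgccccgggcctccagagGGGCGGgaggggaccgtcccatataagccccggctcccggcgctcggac
VIM (vimentin; chr10:17227991-17228240, plus strand): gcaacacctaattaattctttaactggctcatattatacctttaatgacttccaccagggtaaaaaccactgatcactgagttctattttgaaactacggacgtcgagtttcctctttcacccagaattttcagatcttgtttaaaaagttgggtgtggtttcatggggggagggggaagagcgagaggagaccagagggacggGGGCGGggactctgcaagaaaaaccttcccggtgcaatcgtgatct
ITGB1 (shared integrin beta chain; chr10:32958231-32958480, minus strand): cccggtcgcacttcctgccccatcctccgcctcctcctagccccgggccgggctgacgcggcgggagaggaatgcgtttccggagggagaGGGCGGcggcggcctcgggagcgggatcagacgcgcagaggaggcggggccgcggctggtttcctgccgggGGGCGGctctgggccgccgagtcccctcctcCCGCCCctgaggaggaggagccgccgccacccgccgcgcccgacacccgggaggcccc
ADAM12 (membrane protease; chr10:126388478-126388727, minus strand): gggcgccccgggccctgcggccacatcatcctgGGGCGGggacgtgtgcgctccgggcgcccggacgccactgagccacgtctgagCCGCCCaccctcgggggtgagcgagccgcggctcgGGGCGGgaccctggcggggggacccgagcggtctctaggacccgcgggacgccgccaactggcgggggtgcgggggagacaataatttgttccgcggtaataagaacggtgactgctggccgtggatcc
The FN1 window held 6 GC box matches, some of them overlapping, and 1 cAMP response element that begins 183 bases before the start. The VIM window held 1 GC box match, and those of ITGB1 and ADAM12 held 3 each. Of 27305 genes with such a window, 42.3% held a GC box, 1.77% a cAMP response element, 6.6% an AP-1 site and 11.1% a TATA box. Among the 46 matrix genes with a window, 31 held a GC box, 1 (FN1) a cAMP response element, 2 an AP-1 site and 3 a TATA box. These matches describe letters only. COL5A2, ITGB3, MMP1 and MMP13 had no entry in that table.

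The arrays differ in how much they measured. Values were missing for 21.5 to 46.7% of probes on the 5-FU arrays and for 6.44 to 14.5% on the others. Of the 71 matrix genes, 30 (42.3%) had a value on all 12 arrays, against 45.7% of all 7739 features (named genes and unnamed probes). A further 8 (11.3%, against 11.4% of features) had values on every array of the other drugs and on none of 5-FU: ADAM9, COL14A1, ITGA2, ITGA6, ITGB3, ITGB7, MMP1 and MMP13. COL16A1, COL2A1, ITGA9 and MMP14 had values with 5-FU only (5.63% of the matrix genes, 2.53% of features), and ADAM15 had none. The turned ratios of replicate arrays correlated at Pearson's r of 0.713 to 0.819 across probes for the 4 other drugs, and those of forward with reversed 5-FU arrays at 0.488 to 0.527. Cytarabine, paclitaxel and cytochalasin D arrays correlated across drugs at 0.629 to 0.725, almost as high as replicates, while 5-FU arrays correlated with the other drugs at 0.04 to 0.19. The cytarabine arrays had the widest spread of ratios (SD 0.43 and 0.47, against 0.33 to 0.37 on the arrays of the 3 other drugs hybridised in 1 orientation). These differences touch every comparison with 5-FU or cytarabine below, and their part in the results was not tested.

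Against untreated RNA, FN1, VIM and COL5A2 fell with 5-FU, and ADAM12 fell with all of the 4 other drugs. FN1 fell with 5-FU by less (0.91) than MMP9 with paclitaxel and TIMP3 with cytarabine (1.14 each), which were -0.71 and -1.71 without the channel term described next. In the fit with that term, falls outnumbered rises among the calls for each drug. No matrix gene that it could test rose with paclitaxel or cytochalasin D. Without the term, 2 of 60 matrix genes rose with paclitaxel (126 of 6974 features) and 2 of 61 with cytochalasin D (167 of 7026). The test (limma, adjusted p under 0.05 over all features) took 42 matrix genes in at least 1 drug and 30 in all 5. It included a channel term, the difference that the orientation of an array makes to a gene, which only 5-FU with its swapped arrays can give. With 5-FU 3 of 34 matrix genes rose and 4 fell, where 4.44% of all features tested rose and 11.2% fell. With cytarabine 3 of 39 rose and 5 fell (all features: 10.9% and 11.1%). With cisplatin 1 of 40 rose and 6 fell (8.54% and 7.8%). With paclitaxel 3 of 39 fell and none rose (4.05% and 2.65%), and 8 had an unadjusted p under 0.05 in limma in either direction. With cytochalasin D 1 of 39 fell and none rose (6.33% and 4.38%), and 12 had an unadjusted p under 0.05 in limma. Over all features, limma gave an unadjusted p under 0.05 to 987 of 3829 with 5-FU and 1762 of 4683 with cytarabine. The same held for 1683 of 4883 with cisplatin, 1244 of 4796 with paclitaxel and 1386 of 4835 with cytochalasin D. These are the background for every unadjusted count against untreated RNA here and below. The median ratio of the matrix genes was 0.02 with 5-FU, -0.08 with cytarabine, -0.10 with cisplatin, -0.03 with paclitaxel and 0.02 with cytochalasin D, beside 0.01, 0.04, 0.01, 0.02 and 0.02 for all features. These counts lie within a few genes of what the background of each drug gives, which is no result about the matrix genes as a group.

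**Figure D1:**
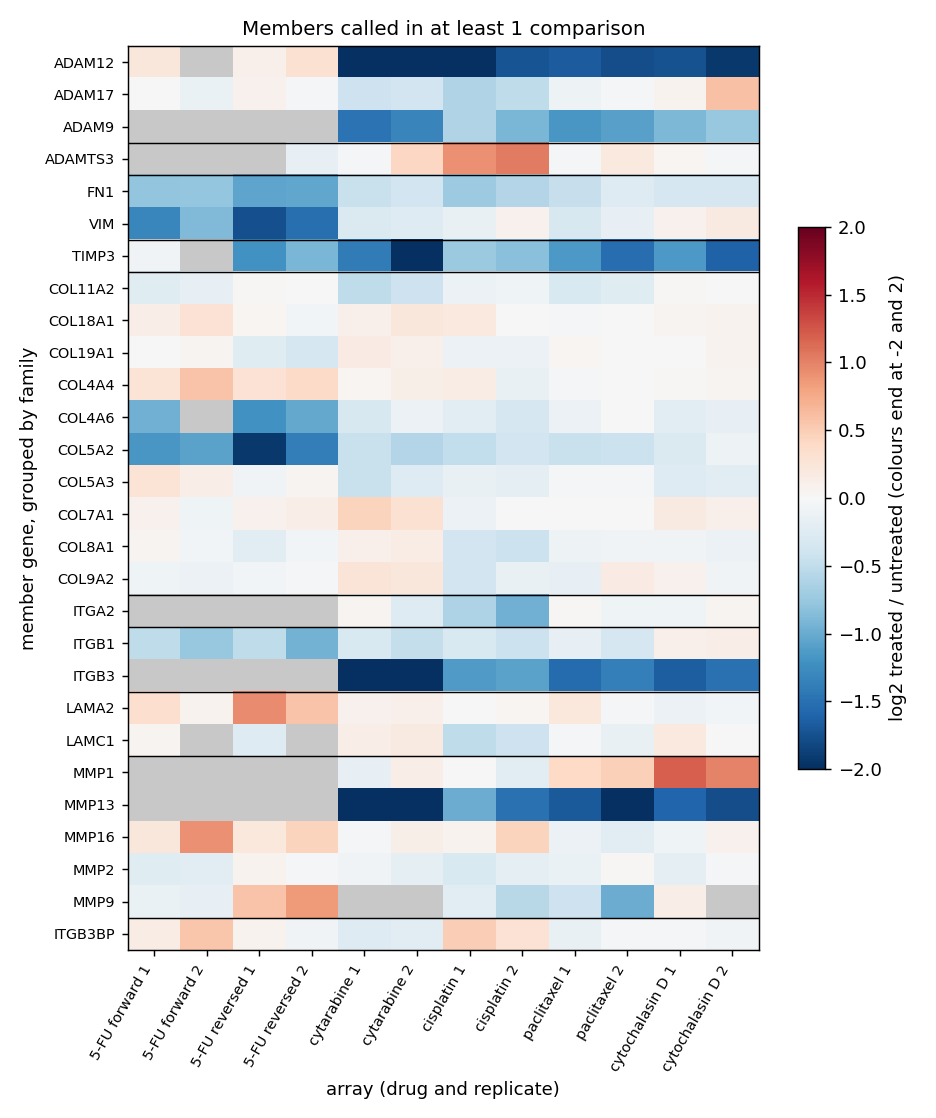
Log2 ratios of treated over untreated RNA (colour, cut off at -2 and 2; grey for no value) for the 28 matrix genes called in at least 1 comparison (rows, by family) on the 12 arrays (columns). FN1, VIM, COL5A2 and COL4A6 are darkest blue on 5-FU arrays, and ADAM12, ITGB3 and MMP13 on the arrays of the 4 other drugs.

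Without the channel term more genes can be tested, and a drug hybridised in 1 orientation then carries any channel effect in its ratio. In that fit 11 of 49 matrix genes were called with 5-FU (19.1% of all features tested), 14 of 56 with cytarabine (25.9%), 17 of 63 with cisplatin (15.8%), 10 of 60 with paclitaxel (9.58%) and 8 of 61 with cytochalasin D (11%). The channel effect could be read for 44 matrix genes, with a median of -0.03. It exceeded 0.5 in size in 2 of them (TIMP3 at -0.57 and COL6A1 at 0.53), which is 4.55%, against 2.46% of features. Its error is assumed from the spread of replicates, so standard errors against untreated RNA may be too small for the 4 drugs without swapped arrays. Differences between drugs avoid it, because 10 arrays, 2 per drug, have treated RNA in channel 1.

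**Figure D2:**
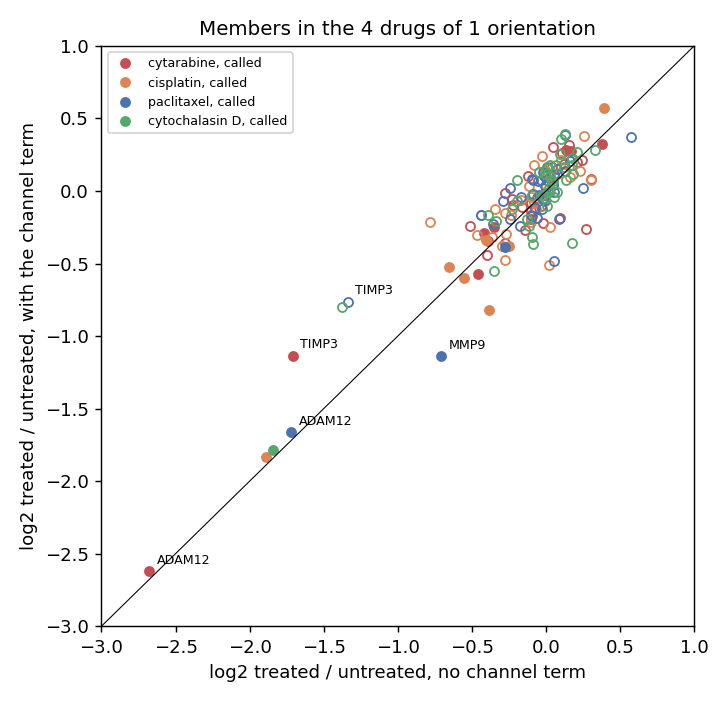
Ratios of matrix genes against untreated RNA with the channel term (vertical) and without it (horizontal), both log2, for 157 gene and drug pairs; filled points passed the test with the term, open points did not, and the line marks equal values. ADAM12 lies near the line, TIMP3 lies above it by 0.57 and MMP9 below it by 0.43.

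Among the 5 drugs on those 10 arrays, 13 of 38 matrix genes (34.2%) differed by limma's moderated F test, against 23.4% of 4855 features. They were ADAM12, VIM, COL4A6, COL5A2, FN1, COL11A2, LAMA2, ITGB3BP, ADAM17, COL8A1, COL19A1, ITGB1 and COL7A1, with adjusted p from 0.000246 for ADAM12 to 0.0409 for COL7A1. COL19A1 and COL7A1 did not pass with arrays scaled to 1 spread (0.0506 and 0.0684), under the replicate block (0.0506 and 0.0625) or without any 1 replicate. ITGB1 did not pass with scaled arrays (0.0522) or without any 1 replicate of the drugs other than 5-FU. LAMA2, ITGB3BP, ADAM17 and COL8A1 each lost the call in at least 1 run without a replicate. Without 5-FU, 10 of 55 (18.2%) differed among the other 4 drugs, against 11.3% of 6519 features: ITGB3, MMP1, ADAM12, COL8A1, ADAMTS3, ITGB3BP, LAMC1, COL11A2, ITGA2 and ADAM17. Of the genes that set 5-FU apart, VIM (adjusted p 0.0993), FN1 (0.16), COL5A2 (0.191), COL4A6 (0.383) and LAMA2 (0.447) did not pass that second test.

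FN1 encodes fibronectin, the glycoprotein that fibroblasts and many tumour cells assemble into fibrils. Its ratio was -0.79 and -0.77 on the forward 5-FU arrays and -1.05 and -1.03 on the reversed ones. It was -0.45 and -0.39 with cytarabine, -0.73 and -0.58 with cisplatin, -0.45 and -0.26 with paclitaxel, and -0.34 and -0.33 with cytochalasin D. All 12 arrays were below 0, and every 5-FU array was lower than every array of the other drugs. FN1 fell by 0.91 ± 0.06 with 5-FU (SE, n = 2 replicates; adjusted p 5.9e-05), a level 1.88-fold lower if the scale is log2. It fell by 0.52 ± 0.08 with cisplatin (adjusted p 0.00596) and by 0.29 ± 0.08 with cytarabine (0.0387). The cytarabine call ended with arrays scaled to 1 spread (-0.19, adjusted p 0.136) and without either cytarabine array (-0.26 and -0.32). Its ratio was -0.23 with paclitaxel (adjusted p 0.125) and -0.21 with cytochalasin D (0.141). FN1 was lower with 5-FU than with cytarabine (by 0.62, 95% interval 0.40 to 0.85), paclitaxel (0.68) and cytochalasin D (0.71). The difference from cisplatin was smaller, at -0.39 (adjusted p 0.0288), and did not pass without any 1 replicate of 5-FU, cisplatin or cytochalasin D (-0.31 without cisplatin replicate 2, adjusted p 0.143).

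VIM was measured at -1.31 and -0.89 on the forward and -1.75 and -1.50 on the reversed 5-FU arrays. With the other drugs it lay between -0.32 (paclitaxel) and 0.18 (cytochalasin D), with no overlap with 5-FU. It fell by 1.36 ± 0.09 with 5-FU (adjusted p 5.08e-05) and passed the test with no other drug. Its ratio with cytochalasin D was 0.39 with the channel term (adjusted p 0.0671) and 0.13 without it. VIM differed between 5-FU and each of the other drugs, from -1.35 against cytarabine to -1.76 against cytochalasin D (adjusted p 0.000578 or lower), and did so under every alternative run.

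COL5A2, a chain of the fibril-regulating type V collagen, moved in much the same way. Its 5-FU arrays read -1.16 and -1.07 forward and -1.93 and -1.38 reversed, and the other drugs lay between -0.59 and -0.10. It fell by 1.39 ± 0.09 with 5-FU (adjusted p 3.98e-05), the largest fall of a matrix gene with this drug among those tested, and was lower than with each other drug by 1.14 to 1.46 (adjusted p 0.00359 or lower). Without the channel term COL5A2 was also called with cytarabine (-0.52), cisplatin (-0.44) and paclitaxel (-0.44); with it, these ratios were -0.24, -0.17 and -0.16 and did not pass.

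**Figure D3:**
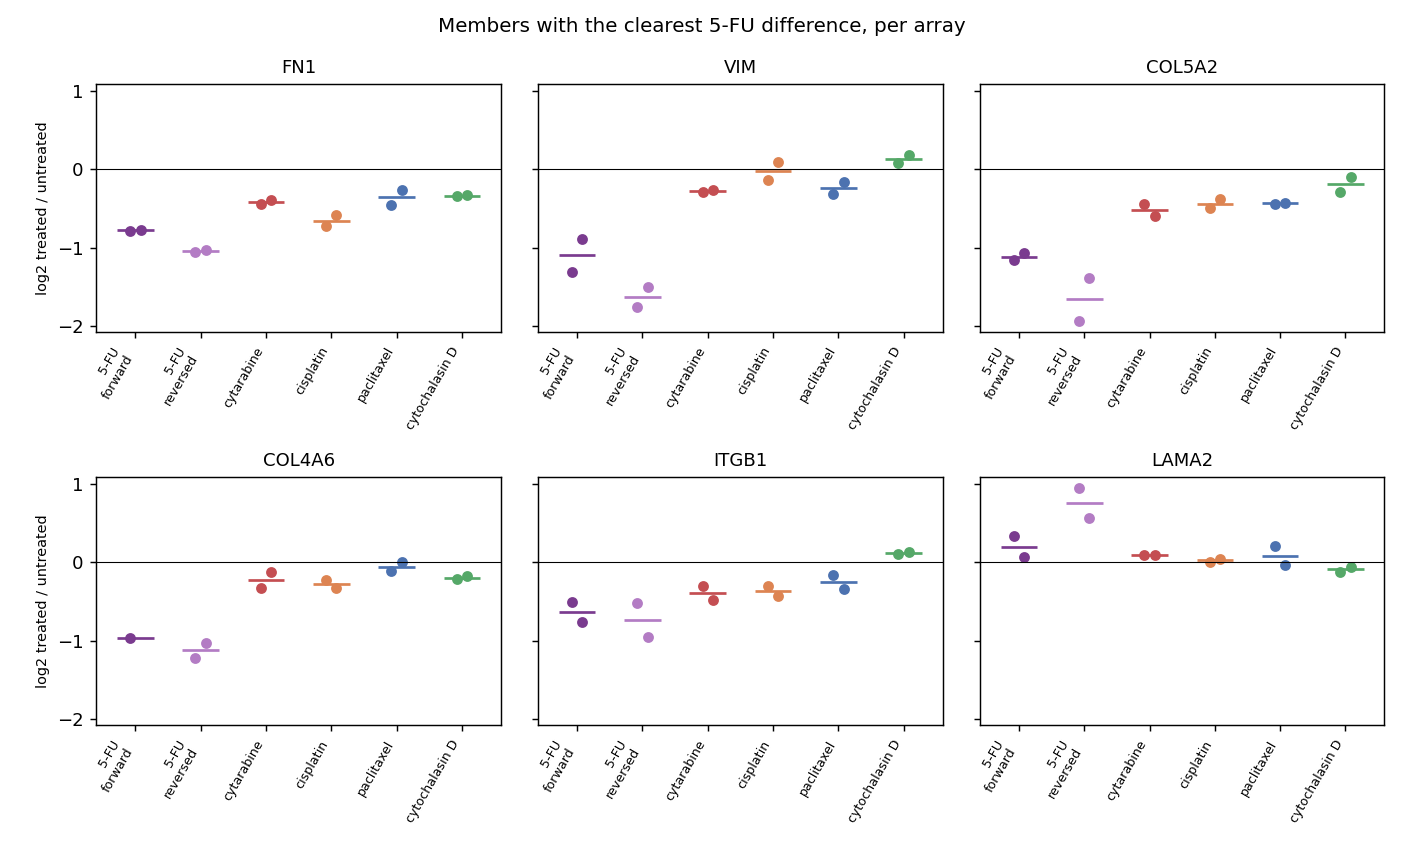
Log2 ratio of treated over untreated RNA on each array (points) for 6 matrix genes, with bars at the mean of the arrays of a group. FN1, VIM, COL5A2 and COL4A6 lie lowest on the 5-FU arrays in both orientations, LAMA2 is highest on the reversed 5-FU arrays, and ITGB1 runs from -0.95 with 5-FU to 0.13 with cytochalasin D.

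COL4A6, a basement membrane collagen chain, had values of -0.97 on 1 forward and -1.21 and -1.02 on both reversed 5-FU arrays, and between -0.33 and 0.01 with the other drugs. Lacking a second forward array, it was not tested with the channel term in 5-FU. It was lower with 5-FU than with each of the other drugs by 0.84 to 1.07 (adjusted p 0.00213 or lower). Another type IV chain, COL4A4, went the other way with 5-FU, at 0.27, 0.56, 0.30 and 0.38, and rose by 0.38 ± 0.08 (adjusted p 0.0168), a call that ended without 5-FU replicate 2 (0.28). COL4A1 read 0.08 and 0.26 on the reversed 5-FU arrays and -0.10 to 0.06 with the other drugs. Thus the type IV chains measured with 5-FU did not share 1 direction.

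The other collagens changed little and mostly with cytarabine or cisplatin. COL11A2, a cartilage fibril collagen chain, read -0.50 and -0.41 with cytarabine, -0.31 and -0.25 with paclitaxel and -0.12 to 0.02 with cisplatin and cytochalasin D. With 5-FU it read -0.25 and -0.16 on the forward and 0.02 and 0.01 on the reversed arrays. It fell by 0.57 ± 0.06 with cytarabine (adjusted p 0.00171) and by 0.39 ± 0.06 with paclitaxel (0.014). Both were also called without the channel term (-0.46 and -0.28). The paclitaxel call ended without either paclitaxel array (-0.36 and -0.42). COL7A1, the anchoring fibril collagen of the skin, read 0.45 and 0.31 with cytarabine and -0.12 to 0.17 on every other array. It rose by 0.32 ± 0.07 with cytarabine (adjusted p 0.0201), a call lost without cytarabine replicate 1 (0.26) or 5-FU replicate 1 (0.27).

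COL19A1 and COL18A1 also rose with cytarabine (by 0.29 and 0.28) and COL5A3 fell by 0.25, with adjusted p of 0.0171, 0.0372 and 0.0466. COL18A1 and COL19A1 did not pass without the channel term (0.17 and 0.13), and COL18A1 and COL5A3 did not pass with arrays scaled to 1 spread. COL5A3, COL18A1 and COL19A1 also lost the call without either cytarabine array. COL8A1, a short chain collagen of vessel walls, read -0.38 and -0.43 with cisplatin and -0.21 to 0.14 elsewhere, and fell by 0.34 ± 0.06 with cisplatin (adjusted p 0.0106). That call ended without cisplatin replicate 2 (-0.31) or 5-FU replicate 2 (-0.27). Its 2 probes gave like values with cisplatin (-0.31 and -0.37 against -0.45 and -0.50) and opposite ones with cytarabine (-0.19 and -0.30 against 0.39 and 0.58), so the cytarabine value of 0.10 and 0.14 is a mean of opposite readings. That mean also enters the calls of COL8A1 among the drugs. Of the 13 collagens tested per drug, 1 rose and 1 fell with 5-FU (all features: 4.44% and 11.2%), 3 rose and 2 fell with cytarabine (10.9% and 11.1%), and 1 fell each with cisplatin (7.8%) and paclitaxel (4.05%). With cytochalasin D none was called, and 3 had an unadjusted p under 0.05 in limma. COL16A1 and COL2A1, read on the 5-FU arrays only, lay between -0.12 and 0.39.

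LAMA2, the alpha chain of muscle and nerve laminins, was 0.33 and 0.07 on the forward and 0.95 and 0.57 on the reversed 5-FU arrays, and -0.12 to 0.21 with the other drugs. The orientations of 5-FU did not overlap with each other for this gene. LAMA2 rose by 0.48 ± 0.09 with 5-FU (adjusted p 0.00745), and the call ended without 5-FU replicate 1 (0.32). It was higher with 5-FU than with the other drugs by 0.67 to 0.85 (adjusted p 0.0161 or lower). These calls ended without either cytarabine array, without cisplatin replicate 1 or without paclitaxel replicate 2, each for its own pair, and the call against cytochalasin D held. LAMC1, the gamma chain of most laminins, read -0.51 and -0.41 with cisplatin, beside 0.06 on 1 forward and -0.26 on 1 reversed 5-FU array, 0.14 and 0.18 with cytarabine, -0.02 and -0.15 with paclitaxel and 0.19 and 0.00 with cytochalasin D. It was lower with cisplatin than with cytarabine by 0.62 (adjusted p 0.0118) and than with cytochalasin D by 0.56 (0.0304), each lost without cisplatin replicate 1, and its other pairs did not pass. Against untreated RNA its cisplatin ratio was -0.30 with the channel term (adjusted p 0.0843) and -0.46 without it (0.00791).

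Among the receptors the calls fell on the beta chains ITGB1 and ITGB3 and on the alpha chain ITGA2. ITGB1, the beta chain that pairs with most alpha chains to bind fibronectin, collagens and laminins, read -0.51 and -0.76 on the forward and -0.51 and -0.95 on the reversed 5-FU arrays. It read -0.31 and -0.48 with cytarabine, -0.30 and -0.43 with cisplatin, -0.16 and -0.33 with paclitaxel and 0.10 and 0.13 with cytochalasin D. Cytochalasin D was the only drug with both arrays above 0. ITGB1 fell by 0.68 ± 0.09 with 5-FU (adjusted p 0.00168). With cytarabine and cisplatin its ratio was -0.34 (adjusted p 0.0678) and -0.32 (0.0962), and without the channel term both passed (-0.39 and -0.37). It was lower with 5-FU than with cytochalasin D by 0.85 (95% interval 0.50 to 1.20; adjusted p 0.00947), which did not pass without either cytochalasin D array (adjusted p 0.0523 and 0.0594). The differences from cytarabine, cisplatin and paclitaxel (-0.34, -0.37 and -0.49) did not pass.

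None of the 5 alpha chains tested with 5-FU was called. ITGA5, the partner of ITGB1 in the classical fibronectin receptor, had a ratio of -0.02 with 5-FU, ITGA2B 0.00, ITGA3 -0.06, ITGA4 0.15 and ITGA7 0.08, although ITGA3 read -0.59 on 1 of its 4 arrays. Chains with fewer values spread further: ITGAM read 0.02, -0.49 and 0.46, ITGA1 -0.22 and -0.36, and ITGA9 -0.75 and 0.02 on the 5-FU arrays that measured them. ITGB4 and ITGB5 had ratios of -0.32 (adjusted p 0.0828) and -0.07. Over the 5 drugs 5 or 6 alpha chains could be tested, between -0.32 (ITGA3 with cytochalasin D) and 0.38 (ITGAM with paclitaxel), and none was called. Their unadjusted p was under 0.05 in limma for none with 5-FU or cisplatin, 1 with cytarabine, 1 with paclitaxel and 2 with cytochalasin D. The 3 probes of ITGA4 disagreed with cytarabine (0.27 and 0.01, 0.02 and 0.02, -0.29 and -1.01).

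ITGB3, the beta chain of the vitronectin receptor and of the platelet fibrinogen receptor, had no value on the 5-FU arrays and the lowest ratios of any integrin on the others. It read -2.06 and -2.10 with cytarabine, -1.14 and -1.07 with cisplatin, -1.53 and -1.37 with paclitaxel and -1.64 and -1.49 with cytochalasin D. Replicates lay close together and the cytarabine and cisplatin arrays stood at the ends. Without the channel term ITGB3 was below untreated RNA with all of these 4 drugs (-2.08, -1.10, -1.45 and -1.56; adjusted p 0.000345 or lower). No swapped array read this gene, so a channel effect and a drug effect cannot be told apart in its ratios. The same holds for untreated RNA that these drugs may have shared. Between drugs the channel effect cancels. Cytarabine was lower than cisplatin by 0.98 (95% interval 0.73 to 1.22, adjusted p 0.00315), also with arrays scaled to 1 spread. Cisplatin was higher than cytochalasin D by 0.46 (adjusted p 0.0496), a call lost under the replicate block (0.0557) and without any 1 array of the 4 drugs.

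ITGA2, the alpha chain of the main collagen receptor of epithelia, read -0.62 and -0.96 with cisplatin and -0.25 to 0.06 on the arrays of the other 3 drugs that measured it. It was lower with cisplatin than with cytarabine, paclitaxel and cytochalasin D by 0.69, 0.76 and 0.78 (adjusted p 0.0276, 0.0483 and 0.0373). All 3 calls ended without cisplatin replicate 2, which left differences of 0.52, 0.59 and 0.61. ITGB2, the leukocyte beta chain, read 0.30 and 0.82 with cisplatin and -0.31 to 0.17 elsewhere, was called with cisplatin in the fit without the channel term (adjusted p 0.0311) and was called in no comparison between drugs. ITGA8 read 0.45 and 0.48 with cytochalasin D and -0.31 to 0.04 with cisplatin and paclitaxel; it was called with cytochalasin D in the fit without the channel term only (adjusted p 0.037). ITGB3BP, a nuclear and integrin tail binding protein, rose with cisplatin by 0.57 ± 0.08 (arrays 0.50 and 0.29, adjusted p 0.00496) and was higher with it than with cytarabine by 0.63 (0.00767). The rise exceeds both readings because a channel effect of -0.18 was taken out, and it was 0.40 without the channel term. With 5-FU the gene read 0.15 and 0.56 on the forward and 0.07 and -0.07 on the reversed arrays.

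Among the proteases tested with the channel term ADAM12 had the lowest ratio with each of the 4 drugs other than 5-FU, and without the term MMP13 was lower than ADAM12 with paclitaxel (-1.88 against -1.72). ADAM12 is a membrane-bound metalloprotease and disintegrin that binds integrins and sheds growth factors. It read -2.62 and -2.73 with cytarabine, -2.05 and -1.73 with cisplatin, -1.66 and -1.77 with paclitaxel and -1.75 and -1.94 with cytochalasin D. With 5-FU it read 0.22 on 1 forward and 0.11 and 0.31 on both reversed arrays. All 8 arrays of the other drugs were at -1.66 or lower and none of the 5-FU arrays was below 0. ADAM12 fell by 2.62 ± 0.13 with cytarabine (adjusted p 0.000212), by 1.83 with cisplatin (0.000564), by 1.66 with paclitaxel (0.00203) and by 1.78 with cytochalasin D (0.00148). On the log2 scale these are 6.15-fold, 3.56-fold, 3.16-fold and 3.44-fold lower. Its channel effect, from the single pair of 5-FU arrays that read it, was -0.06. The 4 falls were also called without the channel term.

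On the arrays of 1 orientation ADAM12 was higher with 5-FU than with each other drug, by 2.88 against cytarabine (95% interval 2.57 to 3.20), 2.10 against cisplatin, 1.93 against paclitaxel and 2.05 against cytochalasin D (adjusted p 0.000248 or lower). The labels do not say whether the other drugs shared untreated RNA, so a difference in untreated RNA cannot be told apart here from a drug effect. Cytarabine was lower than cisplatin by 0.79 (adjusted p 0.01) and than cytochalasin D by 0.84 (0.0371). With arrays scaled to 1 spread these became -0.42 (0.149) and -0.17 (0.674) and did not pass. Cisplatin, paclitaxel and cytochalasin D did not differ from each other beyond the test, with intervals of -0.49 to 0.14 (cisplatin minus paclitaxel), -0.36 to 0.26 (cisplatin minus cytochalasin D) and -0.19 to 0.44 (paclitaxel minus cytochalasin D).

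**Figure D4:**
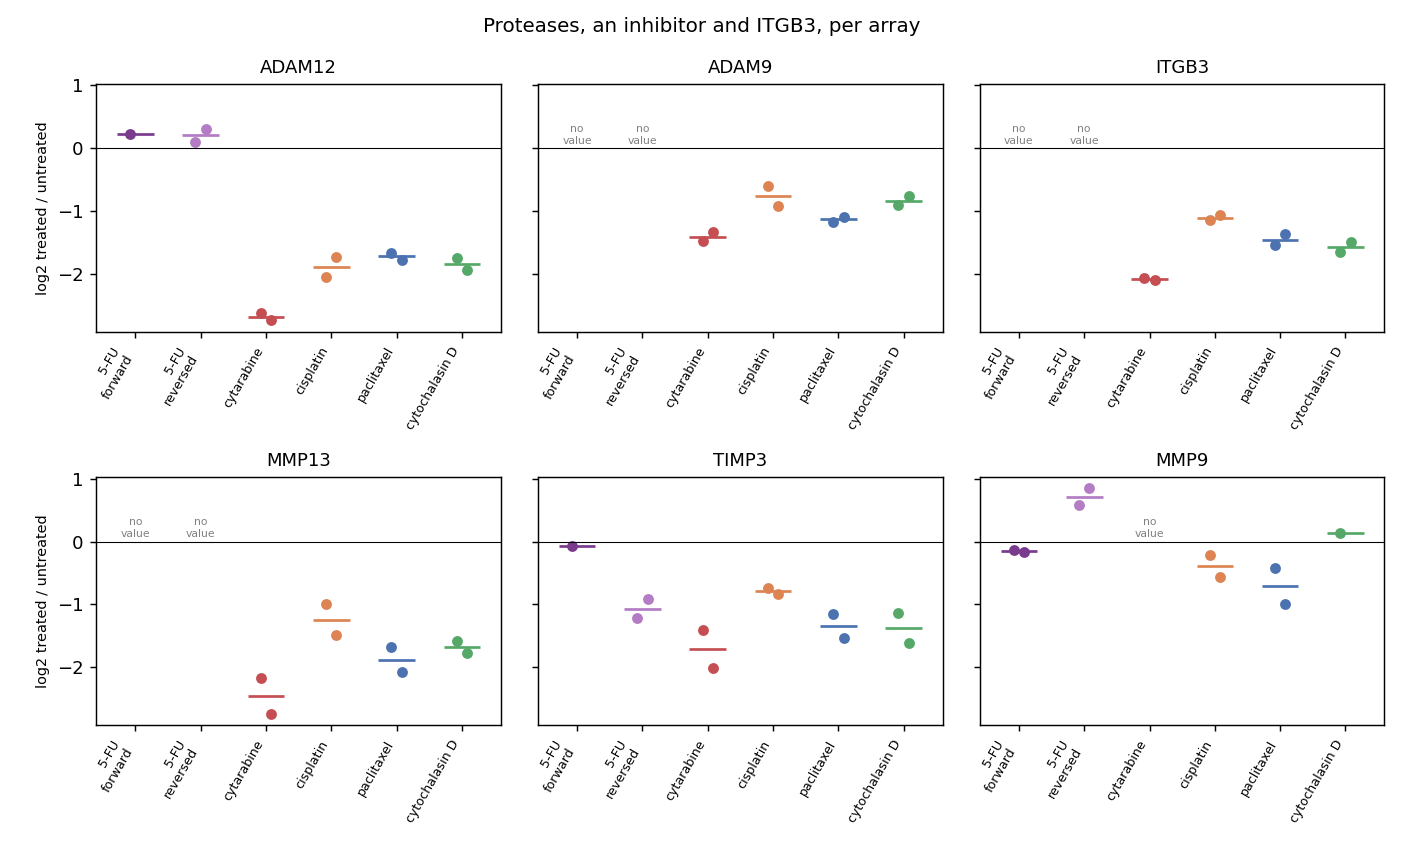
Log2 ratio of treated over untreated RNA on each array (points; bars at the mean of a group) for ADAM12, ADAM9, ITGB3, MMP13, TIMP3 and MMP9. The first 5 are below 0 on every array of the 4 drugs hybridised in 1 orientation, and ADAM9, ITGB3 and MMP13 have no value with 5-FU.

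ADAM9, a related membrane protease, had values for the same 4 drugs only: -1.48 and -1.32 with cytarabine, -0.60 and -0.92 with cisplatin, -1.17 and -1.09 with paclitaxel and -0.90 and -0.76 with cytochalasin D. MMP13, a collagenase that cuts fibrillar collagen, read -2.17 and -2.74, -0.99 and -1.49, -1.68 and -2.07, and -1.58 and -1.77 in the same order of drugs. By their means, both genes were lowest with cytarabine and least low with cisplatin. As with ITGB3, no swapped array read them, and channel, untreated RNA and drug cannot be told apart in these ratios. Without the channel term each was below untreated RNA with all 4 drugs (adjusted p 0.00286 or lower for ADAM9 and 0.00555 or lower for MMP13). Cytarabine was lower than cisplatin by 0.64 for ADAM9 (adjusted p 0.021) and by 1.22 for MMP13 (0.0215). With arrays scaled to 1 spread these were -0.44 (0.102) and -0.86 (0.121), and both calls also ended without cytarabine replicate 2 or cisplatin replicate 1.

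TIMP3, an inhibitor bound to the matrix that blocks metalloproteases and several ADAMs, differed between the orientations of 5-FU. It read -0.07 on the forward 5-FU array that measured it and -1.21 and -0.91 on the reversed ones. It read -1.40 and -2.02 with cytarabine, -0.74 and -0.83 with cisplatin, -1.14 and -1.53 with paclitaxel and -1.14 and -1.61 with cytochalasin D. Every array with treated RNA in channel 1 was low, 5-FU included. After taking out its channel effect of -0.57, TIMP3 fell by 1.14 ± 0.25 with cytarabine (adjusted p 0.0228). That call ended with arrays scaled to 1 spread (-0.92) and without cytarabine replicate 2 (-0.83). Its ratio was -0.21 with cisplatin, -0.76 with paclitaxel and -0.80 with cytochalasin D (adjusted p 0.589, 0.118 and 0.0902). Between drugs only cytarabine minus cisplatin passed (-0.92, adjusted p 0.0384), and it did not pass with arrays scaled to 1 spread (0.158) or without any 1 array of cisplatin or cytarabine replicate 2.

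MMP9, a gelatinase that cuts denatured and type IV collagen, read -0.13 and -0.17 on the forward and 0.57 and 0.85 on the reversed 5-FU arrays. It read -0.21 and -0.56 with cisplatin, -0.42 and -1.0 with paclitaxel and 0.13 on 1 cytochalasin D array, and had no value with cytarabine. With the channel term it fell by 0.82 ± 0.19 with cisplatin (adjusted p 0.0399) and by 1.14 ± 0.19 with paclitaxel (0.0266). Without it neither passed (-0.39, adjusted p 0.165; -0.71, 0.0501), so both calls rest on the difference between the 5-FU orientations. On the arrays of 1 orientation MMP9 was higher with 5-FU than with cisplatin by 1.10 (adjusted p 0.0281) and than with paclitaxel by 1.42 (0.0142), and both calls ended without 5-FU replicate 2 (0.102 and 0.0545).

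MMP1, the interstitial collagenase, stood highest with cytochalasin D. It read 1.20 and 0.99 with cytochalasin D and 0.39 and 0.48 with paclitaxel, beside -0.16 and 0.13 with cytarabine and 0.00 and -0.23 with cisplatin. Its groups for cytochalasin D and paclitaxel overlapped neither each other nor the remaining drugs. MMP1 was higher with cytochalasin D than with cisplatin by 1.21 (95% interval 0.87 to 1.54; adjusted p 0.00653) and than with cytarabine by 1.11 (0.0331). The second call ended under the replicate block (0.0566) and without any 1 array of the 4 drugs. The difference between paclitaxel and cytochalasin D was -0.65 (interval -0.99 to -0.32; adjusted p 0.25), in a comparison where 5 of 6855 features passed. Without 5-FU values its ratios against untreated RNA hold any channel effect (1.09 with cytochalasin D, adjusted p 0.00136; 0.44 with paclitaxel, 0.043).

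**Figure D5:**
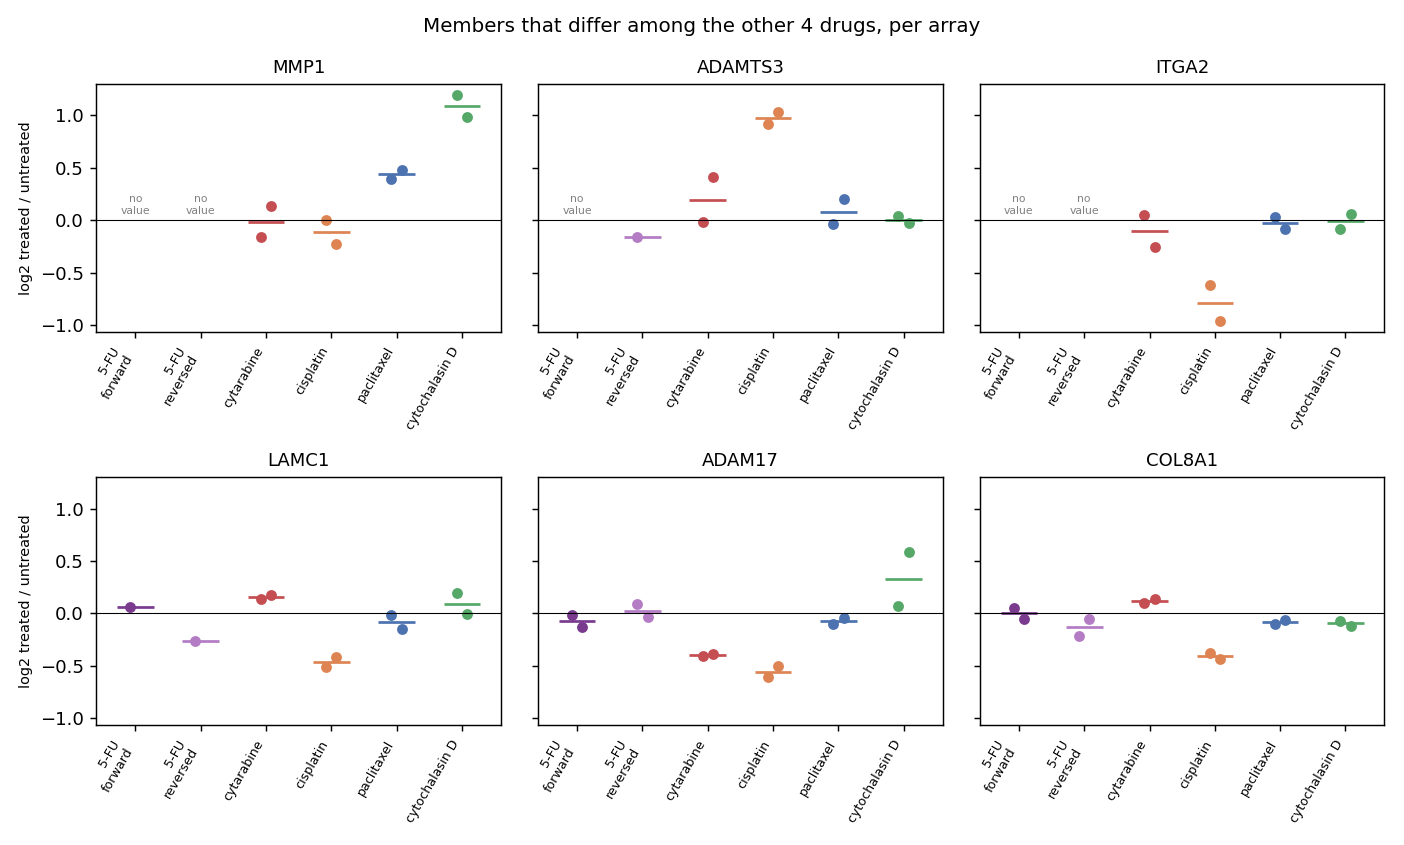
Log2 ratio of treated over untreated RNA on each array (points; bars at the mean of a group) for MMP1, ADAMTS3, ITGA2, LAMC1, ADAM17 and COL8A1. MMP1 is highest with cytochalasin D, ADAMTS3 is highest with cisplatin, and ITGA2, LAMC1, ADAM17 and COL8A1 are lowest with cisplatin.

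Several proteases had calls with cisplatin. ADAMTS3, which trims procollagen, read 0.92 and 1.03 with cisplatin, -0.02 and 0.41 with cytarabine, -0.04 and 0.20 with paclitaxel and 0.04 and -0.03 with cytochalasin D. It was higher with cisplatin than with cytarabine, paclitaxel and cytochalasin D by 0.78, 0.89 and 0.97 (adjusted p 0.0208, 0.0321 and 0.0192), and all 3 calls ended without either cisplatin array. ADAM17, the sheddase of tumour necrosis factor, read -0.61 and -0.50 with cisplatin, -0.41 and -0.38 with cytarabine, and 0.07 and 0.59 with cytochalasin D. It fell by 0.60 ± 0.13 with cisplatin (adjusted p 0.0221) and was lower with cisplatin than with cytochalasin D by 0.89 (0.0185). Neither held without either cisplatin array. MMP2, the other gelatinase, read -0.31 and -0.19 with cisplatin and fell by 0.38 ± 0.08 (adjusted p 0.0218), also not without either cisplatin array (-0.31 and -0.44). On the other arrays MMP2 lay between -0.24 (5-FU, forward) and 0.07 (5-FU, reversed), and its cytarabine ratio was -0.27 (adjusted p 0.0553). MMP2 did not differ among the 5 drugs by the F test (adjusted p 0.306) and was called in no pair of drugs. With 5-FU, MMP16 (a membrane-type metalloprotease) rose by 0.45 ± 0.12 (adjusted p 0.045, arrays 0.23, 0.92, 0.22 and 0.44) and did not pass without 5-FU replicate 2 (0.22). Its value on reversed array 1 is the mean of 2 probes at 0.53 and -0.09, and only the first probe was read on the other 5-FU arrays. With cisplatin these probes read 0.00 and 0.04 against 0.15 and 0.84, and the ratio of MMP16 was 0.38 (adjusted p 0.121). MMP16 was called in no pair of drugs. MMP14, the best known membrane-type enzyme, was read on the reversed 5-FU arrays alone (0.40 and 0.45). The ADAMTS proteases ADAMTS2, ADAMTS5 and ADAMTS12 lay between -0.13 and 0.18 over the 5 drugs and were not called; 1 of them had an unadjusted p under 0.05 in limma, with cisplatin.

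Over the 10 pairs of drugs, 61 of 506 tests of matrix genes passed, in 24 genes. The share of all features that passed is given beside each pair here and in the next paragraph. 5-FU differed from cytarabine in 9 of 39 matrix genes (23% of all features tested), from cisplatin in 9 of 41 (18.1%), from paclitaxel in 9 of 39 (14.6%) and from cytochalasin D in 8 of 40 (14.2%). VIM, FN1, COL5A2 and COL4A6 were lower, and LAMA2 and ADAM12 higher, with 5-FU in each of these 4 pairs. The 4 pairs share the 5-FU arrays and are not independent of each other. Cytarabine differed from cisplatin in 13 of 56 (18.6%): 8 were lower with cytarabine (ADAM12, ADAM9, ADAMTS3, COL11A2, ITGB3, ITGB3BP, MMP13 and TIMP3) and 5 higher (COL7A1, COL8A1, COL9A2, ITGA2 and LAMC1). With arrays scaled to 1 spread ADAM12, ADAM9, MMP13, TIMP3 and COL9A2 no longer passed. Leaving out 1 array of the pair ended each of the 13 calls at least once, except those of COL8A1, ITGB3 and ITGB3BP. The COL8A1 difference comes mainly from 1 probe, which read 0.39 and 0.58 with cytarabine and -0.45 and -0.50 with cisplatin. The other probe read -0.19 and -0.30 with cytarabine and -0.31 and -0.37 with cisplatin. Cisplatin differed from cytochalasin D in 7 of 61 (5.87%) and from paclitaxel in 3 of 60 (4.18%).

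The drugs that act on the cytoskeleton were hard to tell from cytarabine and from each other. Cytarabine differed from cytochalasin D in 3 of 56 matrix genes (1.51%), ADAM12, COL11A2 and MMP1. Paclitaxel and cytochalasin D differed in none of 59 (0.0729%), and cytarabine and paclitaxel in none of 55 (0%). In limma 8 matrix genes had an unadjusted p under 0.05 between paclitaxel and cytochalasin D (684 of 6855 features). Between cytarabine and paclitaxel 9 did (1032 of 6558 features). The largest difference between cytarabine and paclitaxel was that of ADAM12, at -0.96 (interval -1.27 to -0.65; adjusted p 0.119), followed by that of ITGB3 at -0.63 (interval -0.87 to -0.39; adjusted p 0.131). The intervals leave room for differences of this size, so the missing calls do not show that these drugs act alike.

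The genes that make, finish or read the matrix were taken from 5 further lists. Percentages in parentheses are the shares of all features called in that direction, and with so few genes the counts show nothing about a list as a group. Among matrix glycoproteins and proteoglycans, 1 of 18 tested rose (4.44% of all features) and 4 fell (11.2%) with 5-FU. EFEMP1 (fibulin-3) fell by 1.80 ± 0.05, CCN2 (connective tissue growth factor) by 1.34 ± 0.06, SRGN (serglycin) by 0.84 and TGFBI (a TGF-beta-induced adhesion protein) by 0.61, while GPC1 (glypican-1) rose by 0.37. Only without the channel term was EFEMP1 also called lower with cytarabine, cisplatin, paclitaxel and cytochalasin D (-0.47, -0.30, -0.36 and -0.33). The same held for SRGN with cytarabine (-0.49) and cisplatin (-0.38), and for TGFBI with cytarabine (-0.24). CCN2 also fell with cytochalasin D, by 1.82 ± 0.07, and with cisplatin, by 1.11 ± 0.07, and its relative CCN1 fell with cytochalasin D by 1.11. CCN1 and CCN2 are known targets of the actin-sensitive YAP and SRF pathways. CCN1 rose by 0.92 with cisplatin and 0.44 with cytarabine only with the channel term (adjusted p 0.283 and 0.81 without it). In this list 2 of 22 rose (10.9% of all features) and 1 fell (11.1%) with cytarabine, and 1 of 24 rose (8.54%) and 2 fell (7.8%) with cisplatin. With paclitaxel 1 of 22 fell (4.05%), and with cytochalasin D 3 of 24 fell (6.33%). The cytarabine calls also took in POSTN (rose by 0.51) and GPC1 (fell by 0.35), and GPC3 fell by 0.37 with cisplatin. Without the channel term GPC3 did not pass (-0.16, adjusted p 0.161). GPC1 also fell with paclitaxel (by 0.43) and cytochalasin D (by 0.61), and without the channel term only the last passed.

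Collagen maturation genes changed in few cases. PPIB, a collagen-folding isomerase of the endoplasmic reticulum, fell by 0.71 ± 0.06 with 5-FU and by 0.54 ± 0.08 with cisplatin, and the prolyl hydroxylase subunit P4HA1 fell by 0.50 with cytarabine. P3H2, another prolyl hydroxylase, rose by 0.27 with cisplatin. That is 1 of 6 tested fallen with 5-FU (11.2% of all features), 1 of 7 fallen with cytarabine (11.1%) and 1 risen and 1 fallen of 7 with cisplatin (8.54% and 7.8%), with none called of 7 each with paclitaxel and cytochalasin D (2 and 3 with an unadjusted p under 0.05 in limma). In the list of serine and cysteine proteases PLAU, the urokinase that activates plasminogen, rose by 1.25 ± 0.13 with cisplatin (adjusted p 0.00229). CTSD, an aspartic protease of lysosomes that this list also holds, rose by 0.24 with cytarabine. HTRA1 was not tested with 5-FU. It was called up with the 4 other drugs (0.54 to 0.90), and none of these calls passed without the channel term. Counts here were 2 of 7 risen with cytarabine (10.9% of all features), 2 of 8 with cisplatin (8.54%), 1 of 7 with paclitaxel (2.65%), 1 of 8 with cytochalasin D (4.38%) and none of 6 with 5-FU (1 with an unadjusted p under 0.05 in limma).

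Among the actin linkers behind the integrins, ACTN1 fell with 5-FU and rose with cytarabine. The difference between these drugs is not reported here for ACTN1. With 5-FU 3 of 9 genes of the adhesion complex fell (11.2% of all features) and none rose (4.44%): the actinins ACTN4 (by 0.92 ± 0.22) and ACTN1 (by 0.36 ± 0.08), which crosslink actin at adhesions, and CSRP1 (by 0.47). With cytarabine ACTN1 rose by 0.59 ± 0.10 and ZYX (zyxin) by 0.49, while LIMS1 fell by 0.35, which is 2 risen and 1 fallen of 9 (10.9% and 11.1% of all features). CSRP1 fell by 0.32 with cytochalasin D (1 of 10, against 6.33%). None of 10 was called with cisplatin and none of 11 with paclitaxel (2 and 3 with an unadjusted p under 0.05 in limma). Among genes of epithelial and mesenchymal state, TGFBR2, a TGF-beta receptor, fell with cytarabine (1.31), cisplatin (0.86), paclitaxel (1.36) and cytochalasin D (1.12), each ± 0.14. TGFBR2 was not tested with 5-FU. Untreated RNA that the 4 other drugs may have shared cannot be told apart from a drug effect in its ratios. PKP2, a desmosome protein, fell by 0.90 with paclitaxel and by 1.07 with cytochalasin D and rose by 0.52 with cisplatin. S100A4 rose by 0.29 with 5-FU, CLDN7 rose by 0.56 with cytarabine, CLDN1 and ZEB2 rose by 0.27 and 0.36 with cisplatin (CLDN1 not without the channel term, at 0.19 and adjusted p 0.0688), and KRT8 fell by 0.30 with cytochalasin D. In that list 1 of 7 rose with 5-FU (4.44% of all features), 1 rose and 1 fell of 9 with cytarabine (10.9% and 11.1%), and 3 rose and 1 fell of 10 with cisplatin (8.54% and 7.8%). Of 10 each, 2 fell with paclitaxel (4.05%) and 3 with cytochalasin D (6.33%).

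The remaining matrix genes were called in no comparison that is free of the channel effect. ADAM15, COL9A1, ITGA9, ITGB2-AS1, MMP14, MMP19 and MMP23B (7 genes) entered no comparison, and MMP23B has a near-identical gene copy, so its probe may read both. COL6A1 differed by orientation with 5-FU (-0.73 forward and 0.33 reversed), and COL11A1, read on 7 arrays, ranged from -1.02 to 0.19. COL9A3 read 0.75 and 0.39 with paclitaxel and -0.35 on both cytochalasin D arrays, and passed in no comparison with the channel term or between drugs.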

How the data were processed

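RNA of H460 cells treated with 1 of 5 drugs for 24 h was compared with untreated RNA on 12 arrays. The authors deposited 1 log ratio between the channels for each probe, read here as log2. Its log base, its normalization and the filter on spots are not stated in the labels used. Of 8170 probes, 5930 name 1 gene in the platform annotation, 79 several and 2161 none. Signal over background is unknown, and 2 replicates per drug limit the precision.

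Probes of a gene were averaged, unnamed probes kept as features, arrays turned to treated over untreated and centred on their median. Models were fitted over all features with limma 3.58.1 in R 4.3.3, calling features at an adjusted p (Benjamini-Hochberg) under 0.05, and tested on simulated data. Against untreated RNA, forward and reversed 5-FU arrays of a number were averaged, giving 10 replicates, plus 1 observation of the channel effect (weight 4 from 2 pairs of arrays, 2 from 1), and a drug was tested where both replicates had a value. Ratios are tested against 0, which leaves out the variation among untreated cultures. Drugs were compared by moderated F and by 10 pairwise contrasts on the 10 arrays with treated RNA in channel 1.

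Members, lists and tests were chosen with earlier results of these data known. Named in full are members that differ among the 5 drugs, up to 6 per drug with the largest change that passes against untreated RNA, FN1, VIM, and members that share their families; other lists give at most 4 genes per drug. MMP1, MMP13, ADAM9, ITGA2, ADAMTS3 and ITGB3 share a family with these. Replicate numbers do not pair the arrays: deviations of same-numbered arrays correlated at -0.06 to 0.09 across drugs. Alternatives were no channel term, uncentred arrays, every array as a single observation, arrays scaled to 1 spread, complete genes only, robust moderation, a replicate block, and leaving out each replicate. A lone array left is then assumed to vary like the other groups.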

Additional observations from a re-analysis of the deposited data

Results flagged for a closer look

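The 4 arrays of 5-FU form the only group of a size at which a single array can be checked against the rest, and 34 genes had all 4 values. COL16A1, a fibril-associated collagen read only on 5-FU arrays, had a value of 0.39 on forward array 1, far from the other 3 (0.07, 0.10 and 0.07). Chance flags about 1 in 20 such groups, so 1 of 34 is no more than chance gives.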

How the results depend on the processing

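No change of a matrix gene against untreated RNA that passed the test turned its direction under any alternative run, and the calls of FN1, VIM, COL5A2 and ITGB1 with 5-FU passed in all of them. Without the channel term the calls numbered 11 for 5-FU (7 with it), 14 for cytarabine (8), 17 for cisplatin (7), 10 for paclitaxel (3) and 8 for cytochalasin D (1). Some of the added calls are of genes that the channel term left untested and others, such as COL5A2 and ITGB1, of genes tested both ways. With arrays scaled to 1 spread there were 4 for cytarabine and 2 for cytochalasin D, and over genes with all 12 values 1 for paclitaxel and 2 for cytochalasin D. The replicate block gave 3 for cytochalasin D, 8 for 5-FU, 7 for cytarabine, 12 genes among the 5 drugs (13 without it) and 60 calls over the pairs (61). Leaving out 1 replicate gave 2 to 7 calls for cytarabine, 3 to 7 for cisplatin, 1 to 3 for paclitaxel, 0 to 2 for cytochalasin D, 6 to 7 for 5-FU, 7 to 13 among the 5 drugs and 36 to 71 over the pairs; fewer arrays give less power. The 0 for cytochalasin D arises without 5-FU replicate 1, where ADAM12 could not be fitted. Of the 26 calls, scaling ended 6, no channel term 4, and the block and each array on its own 2 each. The log base was not settled: a natural log would change sizes and folds but no call. Spot intensities were not used here.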
